A study of Homo sapiens with 9 samples.

Results

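The genes described here encode solute carriers of family 35, membrane proteins of the endoplasmic reticulum (ER) and Golgi that carry activated sugars and related nucleotides from the cytosol into the lumen. They were taken by gene symbol from a named list of 10: SLC35A1, SLC35A2, SLC35A3, SLC35B1, SLC35B2, SLC35B3, SLC35B4, SLC35C1, SLC35D1 and SLC35D2. A gene counted as measured where a probe set named it alone. Where a gene had several, the probe set was to be chosen by its mean log2 level over the 9 arrays, but each of the 9 measured genes had just 1, so no level decided the choice. SLC35A1, the CMP-sialic acid transporter gene, lay only on a probe set shared with CFAP206 and has no value here. The 9 genes were set against all 14207 genes measured alone.

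The cells were of the established line ARPE-19, derived from human retinal pigment epithelium. They reached confluence in 10% serum and were then kept in 1% albumin. The groups were vehicle control, 100 µg/ml cigarette smoke condensate and 250 µg/ml condensate, with 3 arrays each. The condensate was a commercial stock of 40 mg/ml with 6% nicotine. The sources used here give neither the length of treatment nor whether numbered arrays came from separate cultures. The p-values therefore rest on the scatter among these arrays, part or all of which may be technical.

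Sugars are added to proteins and lipids in the ER and Golgi lumen, but most of the donors (UDP-, GDP- and CMP-sugars) are made outside it. The transporters exchange a donor for the spent nucleotide monophosphate, and sulfation relies in the same way on import of the sulfate donor PAPS. In the eye the pigment epithelium lies on a basement membrane rich in heparan sulfate and faces a glycosaminoglycan-rich matrix, whose chains are built from UDP-xylose, UDP-galactose, UDP-glucuronic acid and UDP-N-acetylhexosamines.

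At 250 µg/ml condensate 2 of the 9 transporter genes rose, SLC35B4 and SLC35D1, and 0 fell (limma, adjusted p under 0.05 over all genes). Over all genes 0.549% passed, 0.387% higher and 0.162% lower. The other 7 measured transporters, for UDP-galactose, UDP-N-acetylglucosamine, PAPS, GDP-fucose, ATP and related substrates, did not pass at either dose. At 100 µg/ml 0 of 9 passed, beside 0.0633% of all genes (0.0563% higher and 0.00704% lower). By an unadjusted p under 0.05, SLC35B4 and SLC35D1 were the 2 transporters higher at either dose, where 8.74% of all genes were higher and 7.9% lower at 250 µg/ml (16.6% together), and 7.0% higher and 7.65% lower at 100 µg/ml (14.6% together). The same vehicle arrays serve both comparisons.

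The promoters of these 2 genes are shown because they are the members that passed the test. Each window runs from 250 bases before to 50 bases after the annotated start, and the sequences are RefSeq's on GRCh38.p14, written 5′ to 3′ on the gene's strand. The window of SLC35B4 is chr7:134316881-134317180 on the minus strand and that of SLC35D1 is chr1:67054099-67054398 on the minus strand. Capitals mark a match to the core of the antioxidant response element, TGACNNNGC.
SLC35B4: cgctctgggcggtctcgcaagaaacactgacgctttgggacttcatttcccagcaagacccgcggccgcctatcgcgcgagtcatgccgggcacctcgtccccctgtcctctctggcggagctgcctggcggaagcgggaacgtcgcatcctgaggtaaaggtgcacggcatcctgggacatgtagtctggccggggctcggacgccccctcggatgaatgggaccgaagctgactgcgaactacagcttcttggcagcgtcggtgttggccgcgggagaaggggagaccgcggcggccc
SLC35D1: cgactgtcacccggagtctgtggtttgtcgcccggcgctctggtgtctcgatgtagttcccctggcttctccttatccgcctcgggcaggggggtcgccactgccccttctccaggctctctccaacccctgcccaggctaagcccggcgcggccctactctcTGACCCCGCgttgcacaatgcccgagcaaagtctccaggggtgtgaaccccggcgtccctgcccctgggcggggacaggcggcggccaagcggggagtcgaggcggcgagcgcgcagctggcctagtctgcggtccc

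Both windows were rich in G and C, at 66.0% for SLC35B4 and 69.7% for SLC35D1, against a median of 58.7% over 35116 windows of all genes. The match in SLC35D1 begins 87 bases before the start, and none was found in SLC35B4. Of all windows 13.3% held this core on either strand, as did 4 of the 17 windows of the 10 transporter genes, belonging to SLC35A2, SLC35B2 and SLC35D1. The xenobiotic response element TNGCGTG was in 5.51% of all windows and, among these genes, in 1 window of SLC35A3. The ER stress response element (0.0769% of all windows), the unfolded protein response element TGACGTGG (0.729%) and the amino acid response element TGATGNAA (3.62%) were in 0 of the 17. All were searched on both strands, matches of different motifs did not overlap, and a match is a string of letters and not a measured binding site.

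SLC35B4 (probe set 3074039) encodes a transporter of UDP-xylose and UDP-N-acetylglucosamine. UDP-xylose is the donor of the first sugar that links a glycosaminoglycan chain to its protein. Its log2 values were 6.46, 5.58 and 5.85 in vehicle arrays 1, 2 and 3, then 7.20, 6.89 and 7.12 at 100 µg/ml and 7.17, 7.74 and 7.42 at 250 µg/ml. All 6 condensate arrays lay above all 3 vehicle arrays, and vehicle array 1 was the highest of the controls. The log2 change at 250 µg/ml was 1.48 ± 0.23 (SE, n = 3 per group, limma adjusted p = 0.0463), a 2.79-fold rise. The change at 100 µg/ml was 1.11 ± 0.23, or 2.15-fold, and did not pass (limma adjusted p = 0.167).

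SLC35D1 (probe set 2417095) encodes the ER transporter of UDP-glucuronic acid and UDP-N-acetylgalactosamine, donors for glucuronidation and for chondroitin sulfate. Its log2 values were 5.73, 5.60 and 6.14 in the vehicle arrays, 6.98, 6.77 and 6.65 at 100 µg/ml and 7.07, 7.14 and 6.67 at 250 µg/ml. Again no condensate array overlapped the controls, and arrays numbered 3 were the lowest of both doses and the highest of the controls. The log2 change at 250 µg/ml was 1.14 ± 0.18 (SE, n = 3 per group, limma adjusted p = 0.0475), a 2.20-fold rise. The lower dose gave 0.98 ± 0.18, or 1.97-fold, with limma adjusted p = 0.136.

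**Figure D1:**
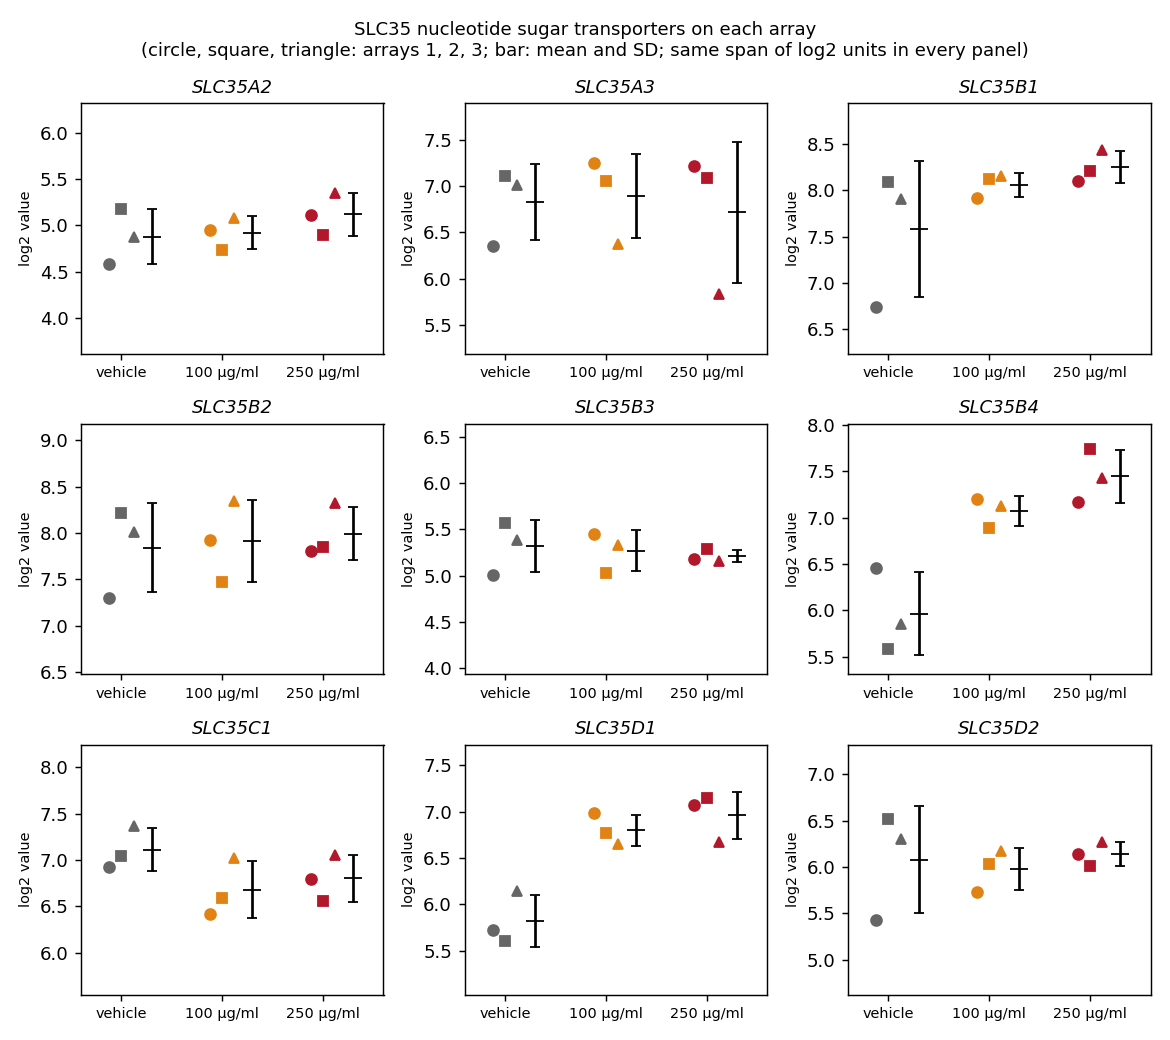
Log2 value of each of the 9 measured transporter genes (vertical axis, the same span in every panel) on the 3 arrays of vehicle, 100 µg/ml and 250 µg/ml condensate, with the group mean and SD as bars. For SLC35B4 and SLC35D1 all 6 condensate arrays lie above the 3 vehicle arrays, while for SLC35B1, SLC35B2 and SLC35D2 vehicle array 1 lies far below the other arrays of its group.

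Both calls at 250 µg/ml lay close to the threshold and depended on single arrays. For SLC35B4 the limma adjusted p was 0.0215 when vehicle array 1 was left out and 0.0479 when vehicle array 3 was, but 0.0762 when vehicle array 2 was. Leaving out arrays 1, 2 and 3 of 250 µg/ml gave 0.111, 0.188 and 0.0688. For SLC35D1 the same p was 0.0229 when vehicle array 3 was left out and 0.0330 when array 3 of 250 µg/ml was. It was 0.0662 and 0.0929 lacking vehicle arrays 1 and 2, and 0.169 and 0.196 lacking arrays 1 and 2 of 250 µg/ml. The sizes moved less: over these 6 settings the change ran from 1.29 to 1.73 log2 units for SLC35B4 and from 1.03 to 1.30 for SLC35D1. Quantile normalization gave 1.40 (adjusted p = 0.0598) and 1.04 (0.0532), and a fit to the 6 arrays of the comparison alone gave adjusted p of 0.141 and 0.136.

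**Figure D2:**
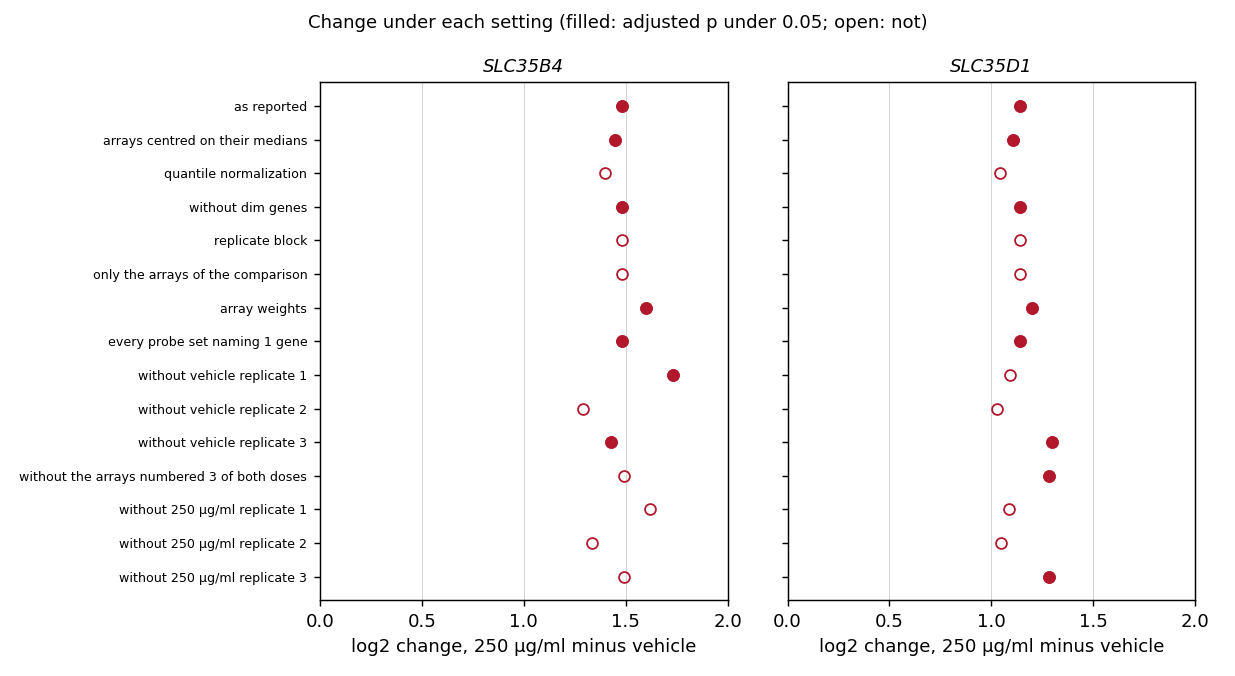
Log2 change of SLC35B4 and SLC35D1 at 250 µg/ml against vehicle (horizontal axis) under each setting (rows); filled points have a limma adjusted p under 0.05 and open points do not. All points lie between 1.03 and 1.73 log2 units, and the filling changes from row to row.

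Neither gene was shown to differ between the doses. The difference between 250 and 100 µg/ml was 0.37 log2 units for SLC35B4 (95% interval -0.16 to 0.91) and 0.16 for SLC35D1 (95% interval -0.25 to 0.58). Arrays of equal number deviated together at these doses, and by number the difference was 0.08, 0.38 and 0.03 for SLC35D1 and -0.03, 0.85 and 0.30 for SLC35B4. In 3 of the 9 transporters, SLC35A2, SLC35B1 and SLC35D1, all 3 differences were positive, as they were in 17.7% of all genes. With the replicate block the 95% interval was -0.23 to 0.98 for SLC35B4 and -0.32 to 0.64 for SLC35D1. That fit spanned all 9 arrays, vehicle included, where no pairing was taken, so it is not a paired test of the doses alone. In it too 0 transporters passed (limma) and 0 had an unadjusted p under 0.05, where 3.29% of all genes did. Without the block 0 of the 9 transporters passed between doses (limma), 0 had an unadjusted p under 0.05, where 1.84% of all genes did (0.985% higher and 0.859% lower), and 0 had arrays that did not overlap between doses, as 3.32% (higher) and 2.86% (lower) of all genes had. Over the 9 arrays the log2 values of SLC35B4 and SLC35D1 correlated at r = 0.872, the highest of the 36 pairs of transporter genes. The pair hardly stood out, as SLC35A2 and SLC35B2, which did not pass, correlated at 0.868. SLC35B4 and SLC35D1 both separate vehicle from condensate and all pairs share the same 9 arrays, so this is a description of these samples.

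**Figure D3:**
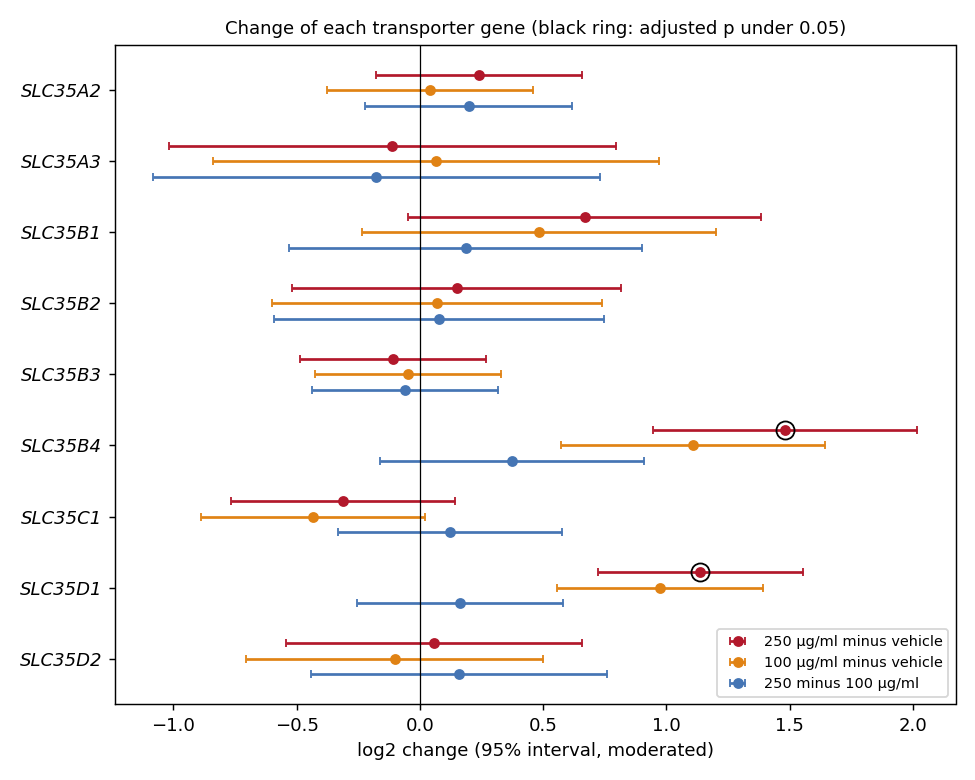
Log2 change of each transporter gene (horizontal axis) with its moderated 95% interval, for 250 µg/ml against vehicle, 100 µg/ml against vehicle and 250 against 100 µg/ml; black rings mark limma adjusted p under 0.05. Rings appear only on SLC35B4 and SLC35D1 at 250 µg/ml, and every interval between doses includes 0.

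The gene for the ER exchanger of ATP and ADP, SLC35B1, had the next largest change. It brings in the ATP that the chaperone BiP uses. Its log2 values were 6.74, 8.09 and 7.91 in the vehicle arrays, 7.91, 8.12 and 8.15 at 100 µg/ml and 8.10, 8.20 and 8.44 at 250 µg/ml. Apart from vehicle array 1 all arrays lay within 0.53 log2 units of each other. The change was 0.67 ± 0.31 at 250 µg/ml (limma adjusted p = 0.328) and 0.48 ± 0.31 at 100 µg/ml (0.497), and lacking vehicle array 1 it was 0.25 and 0.063. The arrays at 250 µg/ml did not overlap the controls, by a margin of 0.01, and with SLC35B4 and SLC35D1 this made 3 of 9 transporters with higher, separate arrays beside 8.61% of all genes. The count at 100 µg/ml was 2 of 9, beside 6.41% of all genes.

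SLC35A2 and SLC35D2, genes for further UDP-sugar transporters, showed no change that passed. SLC35A2, which carries UDP-galactose, had log2 values of 4.58, 5.18 and 4.88 in the vehicle arrays, 4.95, 4.73 and 5.08 at 100 µg/ml and 5.11, 4.89 and 5.35 at 250 µg/ml. Its groups overlapped, with changes of 0.24 ± 0.18 at 250 µg/ml (limma adjusted p = 0.537) and 0.04 ± 0.18 at 100 µg/ml (0.937). SLC35D2, reported to carry UDP-N-acetylglucosamine among other donors, had log2 values of 5.43, 6.52 and 6.30 in the vehicle arrays, 5.73, 6.03 and 6.17 at 100 µg/ml and 6.14, 6.01 and 6.27 at 250 µg/ml. The spread of the controls alone covered all 6 condensate arrays, and the change was 0.06 ± 0.26 at 250 µg/ml (adjusted p = 0.927).

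SLC35A3, a UDP-N-acetylglucosamine transporter gene like SLC35B4 and SLC35D2, varied more within groups than between them. Its log2 values were 6.35, 7.11 and 7.01 in the vehicle arrays, 7.24, 7.05 and 6.38 at 100 µg/ml and 7.22, 7.09 and 5.84 at 250 µg/ml. The arrays numbered 3 of both doses and vehicle array 1 were the low ones, and the other 6 lay between 7.01 and 7.24. The change at 250 µg/ml was -0.11 ± 0.40 (limma adjusted p = 0.906), with a 95% interval of -1.02 to 0.79. Leaving out array 3 of each dose, which was decided once these values were known, gave a change of 0.33.

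The genes for the 2 PAPS transporters, which feed the sulfotransferases of the Golgi, did not pass either. SLC35B2 had log2 values of 7.30, 8.22 and 8.01 in the vehicle arrays, 7.92, 7.47 and 8.35 at 100 µg/ml and 7.80, 7.85 and 8.32 at 250 µg/ml, with changes of 0.15 ± 0.29 at 250 µg/ml (limma adjusted p = 0.824) and 0.07 ± 0.29 at 100 µg/ml (0.935). SLC35B3 had the narrowest range of the 9 transporters, 0.56 log2 units over all arrays. Its values were 5.01, 5.56 and 5.38 in the vehicle arrays, 5.45, 5.03 and 5.34 at 100 µg/ml and 5.18, 5.29 and 5.16 at 250 µg/ml. For this gene the 95% interval at 250 µg/ml ran from -0.48 to 0.27 log2 units.

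SLC35C1, the GDP-fucose transporter gene of the Golgi, had the largest fall of the mean among the 9 at both doses. Its log2 values were 6.92, 7.04 and 7.37 in the vehicle arrays, 6.42, 6.59 and 7.02 at 100 µg/ml and 6.79, 6.56 and 7.06 at 250 µg/ml. Arrays numbered 3 were the highest of each group, and both doses overlapped the controls. The change was -0.31 ± 0.20 at 250 µg/ml (limma adjusted p = 0.465) and -0.43 ± 0.20 at 100 µg/ml (0.362). Its 95% intervals, -0.76 to 0.14 and -0.89 to 0.022, both included 0.

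Control replicate 1 set much of the spread in the vehicle group. It was the lowest of all 9 arrays in SLC35A2, SLC35B1, SLC35B2, SLC35B3 and SLC35D2, that is in 5 of 9 transporters, as it was in 17.5% of all genes. Relative to the other 2 controls it was lower by a median of 0.47 log2 units over the transporters and of 0.049 over all genes. In SLC35B4 it went the other way and lay 0.74 above them. The median change of the transporters was 0.15 at 250 µg/ml and 0.06 at 100 µg/ml, against -0.04 and -0.05 over all genes. Without control replicate 1 the transporters' medians were -0.12 and -0.17. The median at 100 µg/ml was also below 0 without CSC_100 replicate 3 (-0.038), without array 3 of each dose (-0.038) and with array weights (-0.12).

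**Figure D4:**
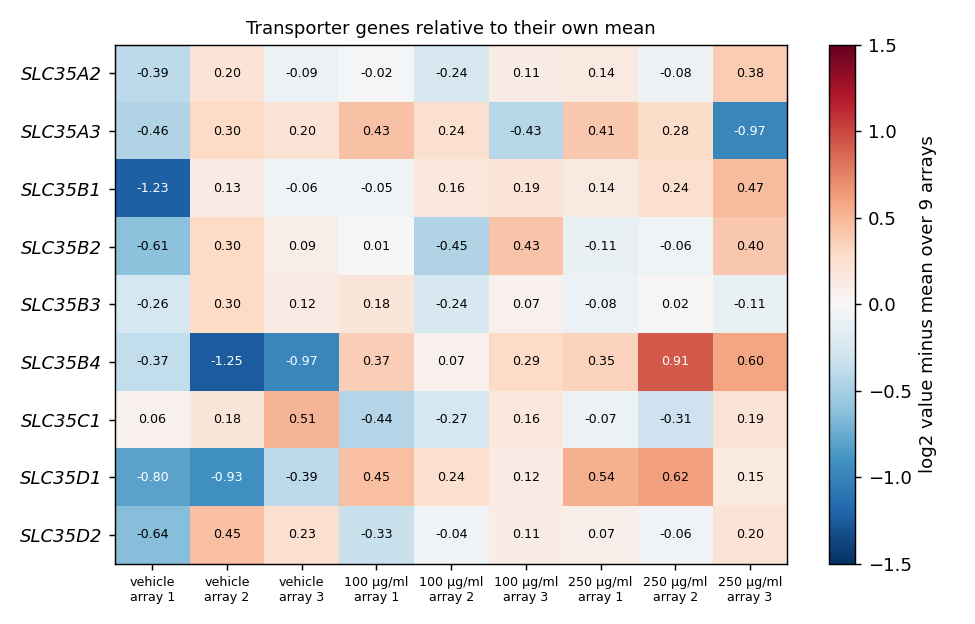
Log2 value of each transporter gene (rows) minus its own mean over the 9 arrays, for each array (columns), in red above and blue below the mean. Vehicle array 1 is blue in 8 of 9 rows, and the rows of SLC35B4 and SLC35D1 are blue on all vehicle arrays and red on all condensate arrays.

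The genes most like SLC35B4, the transporter with the largest rise at 250 µg/ml, were sought by Pearson correlation over the 9 arrays among 10655 genes that were not dim. They were ITPR1 (r = 0.974), an ER calcium release channel, PTPRG (0.968), a receptor tyrosine phosphatase, the lipoprotein receptor gene LRP8 (0.965), the deubiquitinase gene USP13 (0.957) and ETV5 (0.950), an ETS transcription factor. LRP8 rose at 250 µg/ml by 2.10 ± 0.20 log2 units (limma adjusted p = 0.0089). The other 4 did not pass, with limma adjusted p of 0.0504 (ITPR1), 0.0538 (PTPRG), 0.0587 (ETV5) and 0.129 (USP13). SLC35B4 separates vehicle from condensate on these same arrays, so changes of genes chosen for likeness to it follow from the choice. For SLC35C1, with the largest fall of the mean, the 5 most like it were RENBP (0.963), which acts on N-acetylglucosamine, ZNF513 (0.962), ALDH3B1 (0.958), EPN1 (0.957) and KLF16 (0.953). None of these 5 passed at 250 µg/ml, and their adjusted p ran from 0.321 to 0.578.

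Enzymes that make the donors were measured for 24 of 30 listed genes. At 250 µg/ml 1 rose and 0 fell, beside 0.387% and 0.162% of all genes, and the median change was 0.10 log2 units. UXS1, an enzyme of the ER and Golgi lumen that makes UDP-xylose from UDP-glucuronic acid, had log2 values of 6.07, 6.04 and 6.28 in the vehicle arrays, 6.86, 6.81 and 6.81 at 100 µg/ml and 7.14, 7.01 and 6.95 at 250 µg/ml. No array of either dose overlapped the controls. It rose by 0.91 ± 0.10 at 250 µg/ml (limma adjusted p = 0.0127), or 1.88-fold, and had a change of 0.70 ± 0.10 at 100 µg/ml (0.0875). The call at 250 µg/ml ended without CSC_250 replicate 1 (0.069) or 2 (0.099) and in a fit to the 6 arrays alone (0.090). The lower dose passed when vehicle array 3 was left out (0.0454) and with array weights (0.0322).

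UGDH makes the UDP-glucuronic acid that SLC35D1 carries, and is named here after its values were seen. Log2 values of UGDH were 7.71, 7.90 and 7.80 in the vehicle arrays, 8.34, 7.99 and 7.89 at 100 µg/ml and 8.40, 8.33 and 7.86 at 250 µg/ml, with a change of 0.40 ± 0.17 at the higher dose that did not pass (limma adjusted p = 0.296). Among the others the smallest unadjusted p belonged to GMPPA, a regulator of GDP-mannose synthesis (0.71 ± 0.18, adjusted p = 0.115), PAPSS2, which makes PAPS (-0.61 ± 0.18, 0.153), and MPI, mannose phosphate isomerase (-0.76 ± 0.25, 0.189). None of the 24 (0) passed at 100 µg/ml (limma), with 2 higher and 1 lower at an unadjusted p under 0.05, beside 7.0% and 7.65% of all genes. At 250 µg/ml 4 were higher and 4 lower by that measure, beside 8.74% and 7.9%.

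Other members of the SLC35 family, many with unsettled substrates, were measured for 11 of 18 listed genes, and 0 passed at either dose (limma). At an unadjusted p under 0.05 there were 3 at 250 µg/ml and 1 at 100 µg/ml, all higher, beside 8.74% and 7.0% of all genes. The 3 were SLC35A4 (0.71 ± 0.25 log2 units, adjusted p = 0.215), SLC35A5 (0.69 ± 0.29, 0.285) and SLC35F2 (0.51 ± 0.22, 0.293). The median change of the 11 was 0.31 at 250 µg/ml and 0.23 at 100 µg/ml.

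Chaperones and partners that use or serve the ATP carried by SLC35B1 were measured for 6 of 7 listed genes. At 250 µg/ml 3 rose and at 100 µg/ml 1 did, beside 0.387% and 0.0563% of all genes. HYOU1, a nucleotide exchange factor of BiP, rose by 1.77 ± 0.19 log2 units at 250 µg/ml and by 1.55 ± 0.19 at 100 µg/ml (limma adjusted p = 0.0111 and 0.0487). DNAJB11 and DNAJC3, its J-domain partners, rose at 250 µg/ml by 0.99 ± 0.13 and 1.06 ± 0.18 log2 units (limma adjusted p = 0.0239 and 0.050). HSPA5, the gene for BiP itself, did not pass. Its change was 0.86 ± 0.33 at 250 µg/ml and 0.75 ± 0.33 at 100 µg/ml (limma adjusted p = 0.247 and 0.339). In HSPA5 vehicle array 2 (8.81) lay above array 3 of 250 µg/ml (8.76). The call of HYOU1 at 250 µg/ml ended without CSC_250 replicate 1 (0.060) or 2 (0.093), as did that of DNAJB11 (0.11 and 0.13). For DNAJC3 the adjusted p was 0.070 and 0.10 without control replicates 1 and 2 and 0.15, 0.196 and 0.075 without CSC_250 replicates 1, 2 and 3. The call of HYOU1 at 100 µg/ml ended without control replicate 1 (0.072) and without CSC_100 replicates 1, 2 and 3 (0.309, 0.31 and 0.076), without array 3 of each dose (0.067) and in the fit to the 6 arrays of that comparison (0.232). The same kind of fit at 250 µg/ml ended all 3 calls (0.0903 for HYOU1, 0.0935 for DNAJB11 and 0.114 for DNAJC3), and DNAJC3 was also lost without array 3 of each dose (0.0757). SLC35B1 itself was not among the genes called.

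Enzymes that start and lengthen glycosaminoglycan chains were measured for 12 of 15 listed genes, and 0 passed at either dose (limma). The list holds the hyaluronan synthase HAS2, so it is not limited to enzymes that rely on donors carried into the lumen. At an unadjusted p under 0.05 there were 2 at 250 µg/ml and 3 at 100 µg/ml, all higher, beside 8.74% and 7.0% of all genes. In 4 of the 42 alternatives run over the 3 comparisons 1 gene of this list passed. EXTL2, which can add an N-acetylhexosamine to the linkage region, had a change of 1.03 ± 0.18 log2 units at 250 µg/ml (limma adjusted p = 0.0515). EXTL3, which starts the heparan sulfate chain, had one of 0.88 ± 0.22 (0.106). EXT2, a subunit of the heparan sulfate polymerase, had a change of 0.29 ± 0.15 (0.363). XYLT2, which attaches the first xylose, had a change of 0.37 ± 0.19 (0.361).

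**Figure D5:**
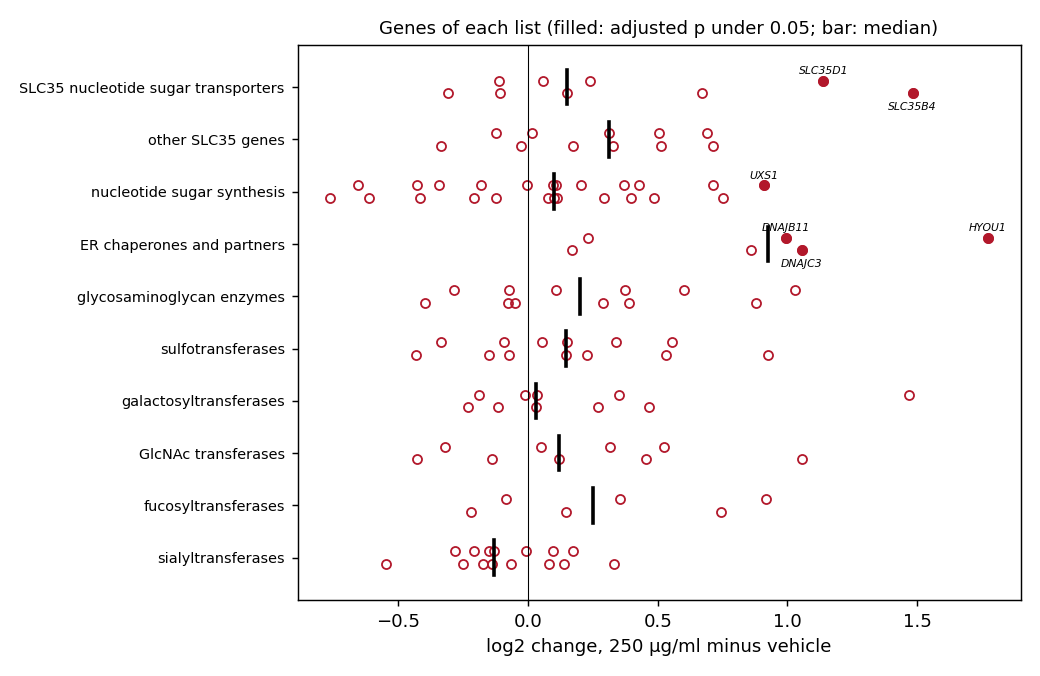
Log2 change at 250 µg/ml against vehicle (horizontal axis) of each measured gene of the transporter list and of related lists (rows), with filled points for limma adjusted p under 0.05 and black bars for medians. SLC35B4, SLC35D1, UXS1, HYOU1, DNAJB11 and DNAJC3 are the filled points, and the medians run from -0.13 for sialyltransferases to 0.93 for ER chaperones and partners.

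Facts of the whole set of arrays bear on these values. The median log2 value of an array ran from 4.42, in vehicle array 1, to 4.59, and all 9 transporter genes had means above the dim limit of 3.06, the lower quartile over genes. The mean log2 level of 20 DNA replication and mitosis genes ranged over 6.19 to 7.26 in vehicle arrays, while at 100 µg/ml it ranged over 7.41 to 8.11 and at 250 µg/ml over 7.16 to 7.49, and its part in the results was not tested. Of 14 measured pigment epithelium markers, 6 were dim: BEST1, RGR, RLBP1, RPE65, STRA6 and TTR. The mean level of the 14 spanned 4.36 to 4.78 in vehicle arrays, 4.16 to 4.36 with 100 µg/ml and 4.16 to 4.32 with 250 µg/ml. Endothelial markers were dim in 4 of 5, macrophage markers in 3 of 5, fibroblast markers in 3 of 7 and epithelial markers in 2 of 6. In these lists 0 genes passed in any comparison (limma). Some markers were not low: the macrophage marker CD68 had a mean log2 level of 9.17. The fibroblast marker PDGFRB was 8.30, 8.41 and 6.88 in vehicle arrays 1, 2 and 3. The fibroblast marker COL1A1 was 3.69, 6.55 and 3.56 in the same arrays. In a culture measured in bulk, fewer cells of a kind and less RNA per cell cannot be told apart.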

How the data were processed

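Total RNA was labelled by a whole-transcript sense-strand assay and hybridised to Affymetrix arrays, per the labels' protocols. The deposited log2 values are 1 per transcript-level probe set and array. RMA, Partek and build hg18 are named in the submitters' processing notes, while the sources used here give no versions, settings or filters. RMA normalizes arrays together, which hides a change in RNA per cell. Fold changes of dim genes are also compressed on such arrays. Current symbols came from RefSeq's gene table (GRCh38.p14), matched on gene number, with 28 numbers unmatched. The number of arrays limits the precision.

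Of 17629 probe sets, 14378 named 1 gene, and 169 of 14207 genes had several, of which the one with the highest mean was used. All 9 arrays were fitted with 1 mean per group (limma 3.58.1 in R 4.3.3), and p-values were adjusted by Benjamini-Hochberg over all genes at 0.05. The fit was tested on simulated data. The members and gene lists were chosen with earlier results of these data known. All members are named. For other lists up to 4 genes are named, those past the threshold against vehicle first, then those with the smallest unadjusted p. Likeness was ranked as 5 genes per member for the largest rise and the largest fall.

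The same-numbered arrays at 250 and 100 µg/ml deviated together from their group means (r = 0.60, 0.44 and 0.68), so the numbers pair these doses, from the data and not from the labels. Against vehicle such correlations ran from -0.14 to 0.26, and no pairing was taken. The arrays numbered 1 gave 0.26 at 100 µg/ml and 0.23 at 250 µg/ml. Alternatives were array scaling, a filter on dim genes, the replicate block, array weights, the 6 arrays alone, every probe set and each array left out.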

Additional observations from a re-analysis of the deposited data

How the results depend on the processing

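The number of transporter genes past the threshold at 250 µg/ml against vehicle, 2 with all arrays, was 0 with quantile normalization, likewise 0 with the replicate block and 0 with the 6 arrays alone, 1 lacking array 3 of each dose (added after seeing the data), and 0 to 2 with single arrays left out. It was 2 after centring each array on its median, without dim genes, with array weights and with every probe set, and 0 in every setting at 100 µg/ml and between doses. With the replicate block the adjusted p of SLC35B4 and SLC35D1 were 0.055 and 0.058 (limma). Between doses the block changed no call, but it spanned the vehicle arrays too and is not a paired test of the doses alone. The same block ended the call of HYOU1 at 100 µg/ml (0.0871) and made 2 calls among the enzymes that make the donors at 250 µg/ml, against 1 as reported. The number of all genes past the threshold at 250 µg/ml, 78 as reported, was 153 after centring, 129 with quantile scaling, 130 without dim genes, 122 with the replicate block, 1 with the 6 arrays alone, 234 with array weights, 167 without the arrays numbered 3 and 4 to 296 with single arrays left out. At 100 µg/ml, 9 as reported, it was 4 with quantile scaling, 3 under the replicate block, 1 with the 6 arrays alone, 73 with array weights, 47 without the arrays numbered 3 and 1 to 57 with single arrays left out. Between doses it was 0 in every setting.

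Changes of SLC35B1, SLC35B4 and SLC35D1 kept their sign in all settings. The small changes that turned sign were as follows, none of them past the threshold, and the cause was not tested. After quantile normalization SLC35A3 at 100 µg/ml was -0.020 and SLC35D2 at 250 µg/ml -0.038. With array weights SLC35A2 and SLC35B2 at 100 µg/ml were -0.12 and -0.31, SLC35A3 and SLC35D2 at 250 µg/ml 0.050 and -0.042, and SLC35B3 between doses 0.15. Without the arrays numbered 3 SLC35A2 and SLC35B2 at 100 µg/ml were -0.038 and -0.15, SLC35A3, SLC35B2 and SLC35D2 at 250 µg/ml 0.33, -0.016 and -0.0081, and SLC35A3 between doses 0.0056. With single arrays left out at 100 µg/ml, SLC35A2 ran from -0.11 to 0.19, SLC35A3 from -0.17 to 0.32, SLC35B2 from -0.20 to 0.29, SLC35B3 from -0.20 to 0.075 and SLC35D2 from -0.43 to 0.11. At 250 µg/ml SLC35A3 ran from -0.36 to 0.33, SLC35B2 from -0.12 to 0.34, SLC35B3 from -0.26 to 0.015 and SLC35D2 from -0.27 to 0.27. Between doses SLC35A3 ran from -0.43 to 0.26, SLC35B2 from -0.14 to 0.30, SLC35B3 from -0.18 to 0.028 and SLC35C1 from -0.0060 to 0.29.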

Other observations

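Enzymes that use sugar or sulfate donors, not all of them carried into the lumen, and luminal nucleotidases were measured in several lists. In these lists 0 genes passed at either dose (limma). Of the 42 alternatives run over the 3 comparisons, 1 gene passed in 5 for the fucosyltransferases, 4 for the galactosyltransferases, 2 for the N-acetylglucosaminyltransferases, 1 for the sulfotransferases and 1 for the luminal nucleotidases. The counts by unadjusted p given here stand beside 8.74% of all genes higher and 7.9% lower at 250 µg/ml, and 7.0% higher at 100 µg/ml. Among 6 of 7 fucosyltransferases, the users of GDP-fucose, 3 were higher at an unadjusted p under 0.05 at each dose. At 250 µg/ml POFUT3 had a change of 0.92 ± 0.18 log2 units (limma adjusted p = 0.0655), FUT8, which adds the core fucose of N-glycans, 0.75 ± 0.22 (0.156), and POFUT1, which fucosylates Notch, 0.35 ± 0.10 (0.153). Among 10 galactosyltransferases 2 were higher by that measure, with the largest change in B4GALT6, a lactosylceramide synthase (1.47 ± 0.29, adjusted p = 0.0637). Among 9 of 10 N-acetylglucosaminyltransferases 3 were higher and 1 lower, with MGAT5, which branches N-glycans, at 1.06 ± 0.24 (0.0827).

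Sulfotransferases that use PAPS were measured for 13 of 17 listed genes, with 2 higher at an unadjusted p under 0.05 at 250 µg/ml. They were CHST11, a chondroitin 4-sulfotransferase (0.93 ± 0.19, limma adjusted p = 0.0690), and CHST10 (0.56 ± 0.14, 0.104). Sialyltransferases, all 15 listed, had 0 higher and 1 lower, ST3GAL6 (-0.55 ± 0.21, 0.245), and a median change of -0.13. A mixed list of sugar transferases was measured for 5 of 9 genes: UGGT1, UGGT2, UGT3A2, UGT8 and UGCG. Not all of them use UDP-glucose or UDP-glucuronic acid in the ER lumen. In this list 1 was higher, the glycoprotein folding sensor UGGT1 (0.43 ± 0.14, 0.203). Luminal nucleotidases, measured for 3 of 5, had 1 higher, ENTPD6 (0.69 ± 0.25, 0.228).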
